A study of Acipenser ruthenus with 15 samples.

Results

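Section D was compared with section C in eggs of Acipenser ruthenus, the sterlet, a sturgeon, to find the RNAs that differ where the egg passes from its centre into its yolk-rich vegetal side. Each egg, which the labels call an oocyte of Stage 1, was frozen in embedding medium and cut with a cryostat, and its slices gave 5 segments, lettered A at the animal pole through E at the vegetal pole. Section D lies next to the vegetal segment E, and section C is the middle one. The 3 segments D and the 3 segments C came from eggs number 10, 18 and 20, so 6 of the 15 libraries carry the comparison. The labels give the eggs no treatment, strain, age or mother, so whether the 3 eggs share a female is not known. P-values set a difference against the spread over these 3 eggs, estimated over all 5 sections and partly shared across transcripts. Total RNA was depleted of ribosomal RNA with probes made for human, mouse and rat, and was sequenced from strand-specific libraries.

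A fish or amphibian egg is a single large cell. Its animal pole holds the nucleus and less yolk, and its vegetal pole holds most of the yolk. Some maternal RNAs are carried to one pole during oogenesis and anchored there, and in frogs and fish vegetal RNAs include components of the germ plasm, which marks future germ cells, and determinants of the germ layers and the body axis. Such RNAs reach the embryo's cells according to where cleavage divides the egg.

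Each file lists 42878 assembled transcripts, of which 28041 carry DN and 14837 carry GG in their identifier. The identifiers come without gene names, and 0 matched an annotated sterlet gene in the table used here, so transcripts are given by identifier, without a role or position, and markers of the egg's regions or of follicle cells could not be read. The section D libraries held 7572855, 14500611 and 8056263 counts in eggs 10, 18 and 20, and the section C libraries held 12933192, 6855279 and 4347026. Library totals thus lay in opposite order in egg 10 and in the other two eggs. After a filter on low counts, 29102 transcripts were tested, while 575 had no count in any library. Levels are in CPM, counts relative to library size, after TMM scaling, which assumes that most transcripts do not differ. A level is therefore a share of the RNA of its segment, and more of one RNA cannot be told apart from less of all the others.

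With TMM scaling, which assumes that most transcripts do not differ, most stood at similar levels in sections D and C. Those that differed were then mainly higher in D. With the deposited factor or the spike-in as scaling, described below, 10195 and 12542 transcripts were called, mainly higher in C. That most transcripts are alike in D and C is therefore not a result independent of the scaling. Of the 29102 tested, 732 passed edgeR's quasi-likelihood test at a Benjamini-Hochberg adjusted p under 0.05, with the egg as a block, which is 2.52%. Of these, 585 were higher in section D, which is 2.01% of those tested, and 147 were higher in section C, which is 0.505%. An unadjusted p under 0.05 was found for 3617, these 732 included. The median log2 change, D over C, was 0.00 over all transcripts, with an interquartile range of -0.19 to 0.18. The median standard error was 0.22. For 19830 transcripts, 68.1%, the 95% confidence interval of the change lay within 2-fold in either direction, and for 11845, 40.7%, it lay within 1.5-fold. At the threshold, the last transcript inside had an adjusted p of 0.0492 and a log2 change of 0.50 in size, and the first outside had 0.0501 and 0.55 (edgeR, Benjamini-Hochberg).

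The 585 transcripts higher in section D, called the D set here, changed by a median log2 of 0.82, with an interquartile range of 0.62 to 1.08. They included 457 changes of at least 1.5-fold, 183 of at least 2-fold, 10 of at least 4-fold and 2 of at least 8-fold. In 584 of them all 3 eggs had the higher level in D. In 503, 86.0%, the lowest D library stood above the highest C library, as it did in 1687 of all tested transcripts, 5.80%, a count that includes these. The test that chose the set used these same libraries. The D set made up 6.34 ± 0.316% of the counts in section D and 3.90 ± 0.379% in section C (SD, n = 3).

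Under the rule for naming, the D set is represented by its largest changes, above 5 CPM, that stood under 3 scalings described below. trinitytrinLocDN54217c2g1t3 had 38.6, 29.6 and 24.9 CPM in section D of eggs 10, 18 and 20, against 8.97, 5.21 and 5.99 CPM in section C. All D libraries lay above all C libraries, by 4.62-fold as a ratio of the means, and egg 10 was the highest in both sections. Its log2 change was 2.22 ± 0.15 (SE), with an adjusted p of 9.13e-07 in edgeR with Benjamini-Hochberg adjustment, and it lay between 2.09 and 2.31 with any egg or C or D library left out. From section A through section E its mean levels were 0.594 ± 0.433, 1.12 ± 0.121, 6.72 ± 1.98, 31.0 ± 6.94 and 132 ± 34.1 CPM (SD, n = 3), each mean above the one before it. trinitytrinLocGG_62355c0g1t1 had 13.3, 3.47 and 14.6 CPM in section D, against 2.94, 0 and 0 CPM in section C. The groups did not overlap, but all 38 counts in section C came from egg 10, and section D of egg 18 stood close to that library. Its log2 change was 3.48 ± 0.64 (SE), adjusted p = 0.0103 in edgeR with Benjamini-Hochberg adjustment. That call was lost, with an adjusted p of 0.176, when egg 20 was left out, and with 0.0603 when its section C alone was. Without egg 10 the fitted log2 change was 9.29 and without its section C alone it was 8.91, both against 0 counts in C, where the value depends on the prior count. DESeq2 gave an adjusted p of 0.264, and the edgeR fits gave 0.186 with a robust variance and 0.83 without the egg as a block. No count of this transcript was found in sections A and B.

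**Figure D1:**
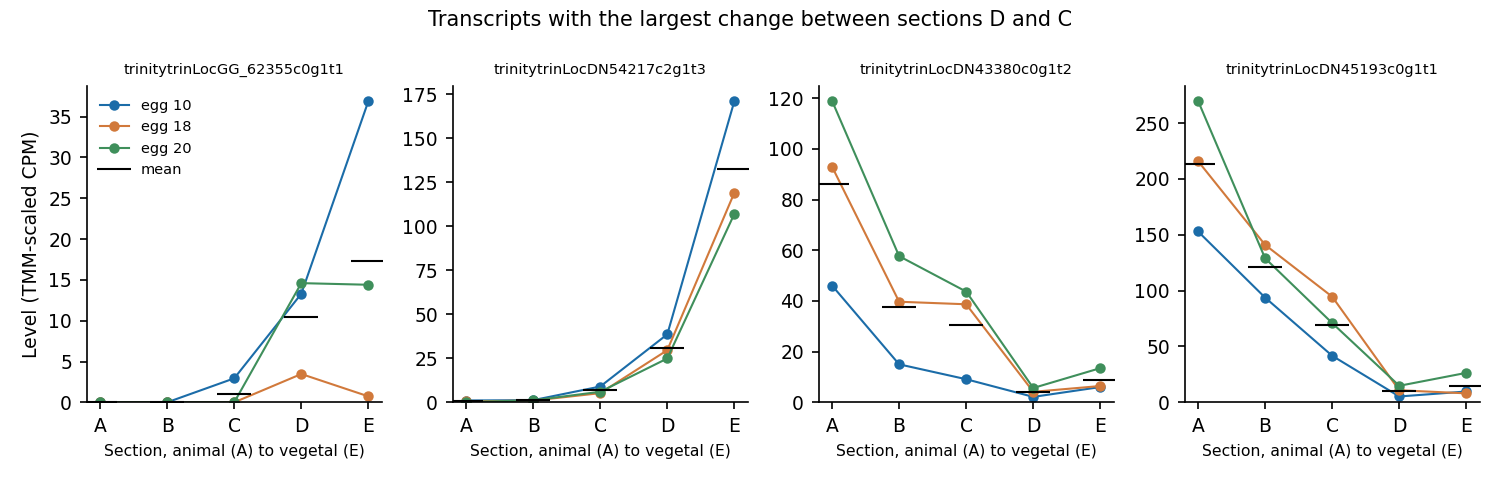
Levels of the 4 transcripts named for sections D and C, in TMM-scaled CPM (vertical axis, linear), by section from animal to vegetal (horizontal axis); points joined by lines are the libraries of 1 egg and black bars are means of 3 eggs. The D libraries of trinitytrinLocDN54217c2g1t3 lie between 24.9 and 38.6 CPM, above the C libraries, while those of trinitytrinLocDN43380c0g1t2 and trinitytrinLocDN45193c0g1t1 lie at 14.8 CPM or less, below the C libraries of the same transcript.

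The 147 transcripts lower in section D, called the C set, changed by a median log2 of -0.65, with an interquartile range of -1.01 to -0.50. There were 90 changes of at least 1.5-fold, 39 of at least 2-fold, 14 of at least 4-fold and 3 of at least 8-fold. All 3 eggs had the lower level in D in 146 of them. In 69, 46.9%, the highest D library stood below the lowest C library, against 923 of all tested, 3.17%. The test that chose this set, too, used these same libraries. The C set made up 0.929 ± 0.149% of the counts in section D and 1.43 ± 0.218% in section C (SD, n = 3).

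The named members of the C set were high at the animal pole. trinitytrinLocDN43380c0g1t2 had 2.15, 4.15 and 5.66 CPM in section D of eggs 10, 18 and 20, against 9.12, 38.7 and 43.7 CPM in section C. Egg 10 was the lowest in both sections, and the groups did not overlap. Its log2 change was -2.85 ± 0.25 (SE), with an adjusted p of 7.63e-06 in edgeR with Benjamini-Hochberg adjustment. As a ratio of the means, its level was 7.66-fold higher in C. Without the egg as a block the log2 change was -2.90 and the adjusted p 0.0724. Along the axis, A through E, its means were 86.2 ± 37.2, 37.5 ± 21.5, 30.5 ± 18.7, 3.99 ± 1.76 and 8.65 ± 4.18 CPM (SD, n = 3), lowest in D. trinitytrinLocDN45193c0g1t1 had 5.24, 10.8 and 14.8 CPM in section D, against 41.7, 94.6 and 71.0 CPM in section C, and egg 10 was again the lowest in both. Its log2 change was -2.77 ± 0.26 (SE), with an adjusted p of 1.26e-05 in edgeR with Benjamini-Hochberg adjustment. As a ratio of the means, its level was 6.71-fold higher in C. The means along the axis were 213 ± 58.5, 121 ± 24.4, 69.1 ± 26.5, 10.3 ± 4.82 and 14.7 ± 10.1 CPM, with the mean again lowest in D. In egg 18, however, section E stood at 8.05 CPM, below its section D at 10.8 CPM. No other transcript with the component number of either of these, or of the D set's named members, is listed.

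No transcript of the D set was without counts in section C, and 2 transcripts of the C set had 0 counts in section D. They are named after their values were seen. trinitytrinLocGG_36424c0g1t1 had 37 counts in section C, 1.89 ± 1.44 CPM (SD, n = 3), and was at least 5.64-fold higher there, taking 3 counts in each D library as the limit that 0 counts allow. trinitytrinLocDN45644c0g1t7 had 15 counts in section C, 0.674 ± 0.449 CPM, and was at least 2.01-fold higher on the same limit. Their adjusted p was 0.0405 for the first and 0.0155 for the second in edgeR with Benjamini-Hochberg adjustment, and the first lost its call in 8 of 9 fits that left out an egg or a C or D library, the second in 6. The 9 fits are the 3 without an egg and the 6 without a single library. Bounds and intervals from counts cover counting error only, and the labels name no molecular identifiers.

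Calls came mostly from well measured transcripts. In 5 equal groups by mean level, the share in the D set was 0.0687%, 0.361%, 1.79%, 2.75% and 5.09% from the lowest to the highest group. For the C set the shares were 0.12%, 0.189%, 0.378%, 0.67% and 1.17%. The share of transcripts whose confidence interval lay within 2-fold went with level as well, at 6.01% in the lowest group and 97.1% in the highest. At low level, therefore, a 2-fold difference was mostly not detectable at this depth. The median size of a called change was 2.72 on the log2 scale in the lowest group and 0.65 in the highest. Transcripts with DN numbers were in the D set in 2.08% and in the C set in 0.616%, and those with GG numbers in 1.89% and 0.297%, with median levels of 12.2 and 4.41 CPM.

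**Figure D2:**
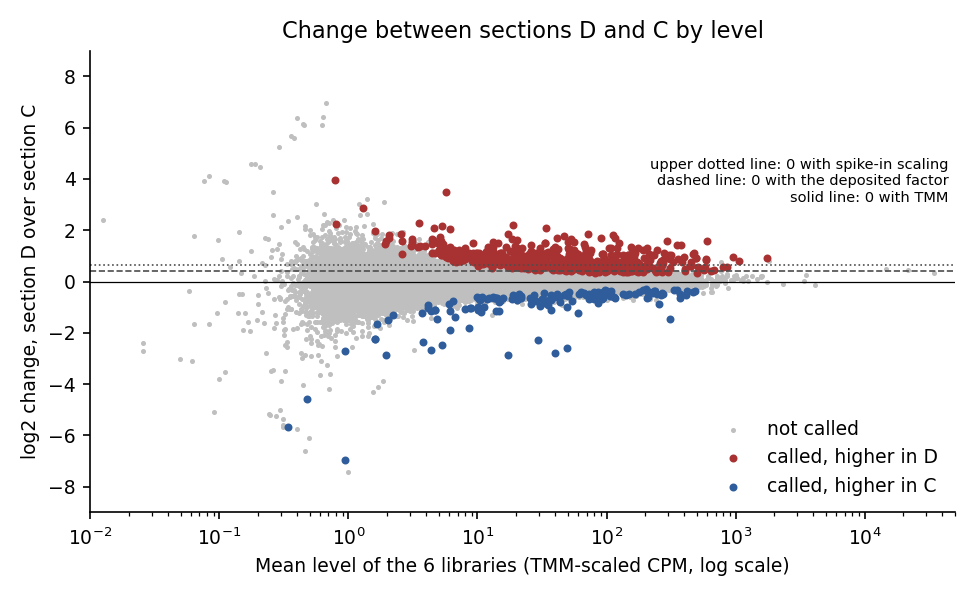
Each point is 1 of the tested transcripts with a count in sections C or D, placed by its mean level over the 6 libraries (horizontal, log scale) and its log2 change, D over C (vertical). Called transcripts are red where higher in D (585) and blue where higher in C (147), most of them above 1 CPM, and the horizontal lines mark where no change would lie with TMM, with the deposited factor and with the spike-in.

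The most abundant RNAs leaned toward section D by a small amount. Of the 100 most abundant transcripts, 14 were in the D set and 0 in the C set. Over all tested transcripts these shares were 2.01% and 0.505%, and in the highest of the 5 groups by level 5.09% and 1.17%. The median log2 change of the 100 was 0.09, against 0.00 over all transcripts. Their log2 change was above 0 in 69 of 100 with TMM, in 19 with the deposited factor and in 8 with the spike-in, so this lean turns with the scaling. They took 16.5 ± 3.03% of the counts in section D and 14.3 ± 1.76% in section C (SD, n = 3). These SDs are between eggs, and the difference of the shares within each egg was not tested. The 2 most abundant took 6.09 ± 1.25% in D and 4.97 ± 1.11% in C. Their log2 changes were 0.32 and 0.45, and the smaller of their adjusted p-values was 0.117 in edgeR with Benjamini-Hochberg adjustment.

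The split between the directions depended on how libraries were scaled. With TMM, 79.9% of the calls were higher in D, and with total counts only, 67.6% of 695. The deposited normalized signal implies another factor per library. Relative to the TMM library size, that factor averaged 1.16 ± 0.00208 in section D and 0.881 ± 0.00706 in section C (SD, n = 3), a ratio of 1.33, 1.31 and 1.31 in eggs 10, 18 and 20. With it, 10195 transcripts were called, of which 3.23% were higher in D, and the median of all transcripts moved by -0.40 on the log2 scale. The spike-in, an added RNA, stood at 232 ± 23.3 CPM in section D and 149 ± 15.6 CPM in section C, with ratios of 1.42, 1.95 and 1.37 in eggs 10, 18 and 20. With the spike-in as scaling, 12542 transcripts were called, 0.718% of them higher in D, and the median moved by -0.65. The sources used here do not say when the spike-in was added. These 3 eggs all had D above C in both measures, and which scaling is nearer to the amount of RNA per egg volume was not tested.

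**Figure D3:**
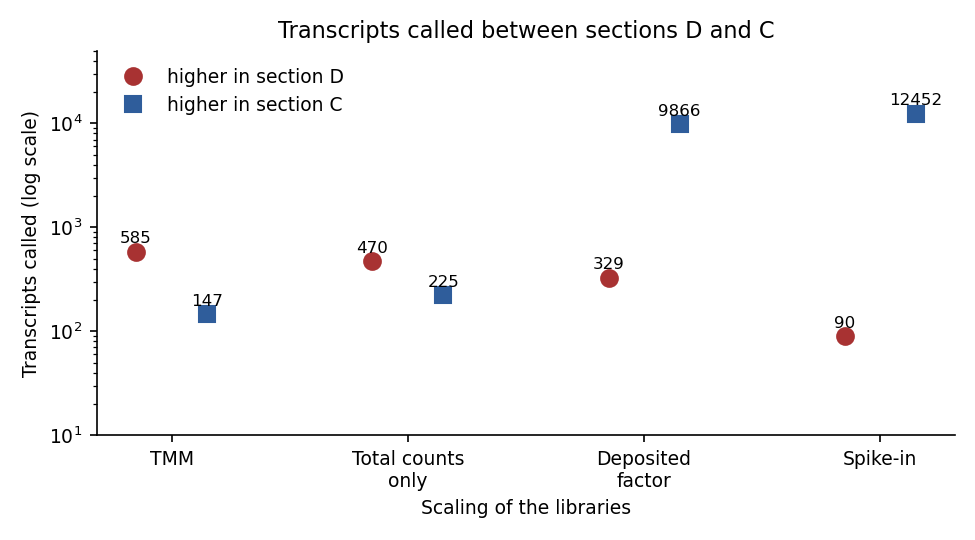
Number of transcripts called between sections D and C (vertical, log scale) under 4 scalings (horizontal); red circles are transcripts higher in D and blue squares those higher in C. The count higher in D runs between 585 with TMM and 90 with the spike-in, and the count higher in C between 147 and 12452.

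A change of scaling moves most transcripts by about the same amount. The distance of the D set's median from the median of all transcripts is thus nearly fixed, and what can change is its sign and its calls. The median log2 change of the D set was 0.76 with total counts, 0.42 with the deposited factor and 0.18 with the spike-in, against -0.07, -0.40 and -0.65 over all transcripts. With the deposited factor 571 of 585 stayed above 0, and with the spike-in 427 did while 158 stood below 0. The call higher in D held for 470 members with total counts, 312 with the deposited factor and 69 with the spike-in. These 69, 0.237% of those tested, were called with TMM, the deposited factor and the spike-in alike, and all changed by at least 2-fold with TMM, with a median log2 change of 1.5. Their mean level in section D ran between 1.48 and 903 CPM. In 66 of them, 95.7%, all D libraries lay above all C libraries, against 86.0% of the D set and 5.8% of all tested transcripts. The tests that chose these 69 used the same libraries, and the shift under the spike-in lets mainly large changes keep the call. A mean under 1 CPM in section A was found for 30, of which 6 had no count there. The share of all tested transcripts under that level in section A was not counted, so whether 30 of 69 is unusual is not known. The 147 members of the C set were called under each of these scalings, with medians of -0.71, -1.05 and -1.29, which follows from a shift that lowers all transcripts in D.

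The 3 eggs did not weigh alike. The median log2 change of the D set was 0.66, 0.81 and 0.96 in eggs 10, 18 and 20, and that of the C set was -0.57, -0.60 and -0.73. Over 17251 transcripts the changes of 2 eggs correlated by 0.385 for eggs 10 and 18, 0.456 for 10 and 20 and 0.253 for 18 and 20, a description across transcripts that share libraries of unequal depth. Each fit without an egg or a library called transcripts anew, whether in these sets or not. Calls higher in D dropped by more than 1.5 times without egg 18 (231) or egg 20 (144). The same held without section D of egg 18 (363), section D of egg 20 (377) or section C of egg 20 (302). Calls higher in C did so without egg 18 (45), egg 20 (14), section C of egg 10 (70) or section D of egg 10 (90). They also did so without section D of egg 18 (43), section D of egg 20 (53) or section C of egg 20 (36). Members called in each of the 9 fits numbered 126 of 585 in the D set, 21.5%, 9 of 147 in the C set, 6.12%, and 45 of the 69, 65.2%. Without the egg as a block 180 were called higher in D and 7 higher in C. Against a minimum change of 1.5-fold 65 and 7 were called.

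Libraries of sections A, B and E are not part of the contrast D over C, though they enter its fit. They show the same transcripts elsewhere in the egg. In section E against section A, 576 of the 585 members of the D set were higher in E, 98.5%, against 17.5% of all tested transcripts, and 2 were higher in A. In the highest of the 5 groups by level, 29.5% were higher in E. Taken E over A, the D set had a median log2 change of 2.21, with an interquartile range of 1.46 to 3.40, against -0.02 over all. With other scalings the median was 2.12, 1.62 and 1.72 for total counts, the deposited factor and the spike-in, where that of all transcripts was -0.11, -0.61 and -0.53. For the 69 the fitted median was 5.35, and 68 were higher in E. Their medians within eggs 10, 18 and 20, from log2 of CPM plus 0.5, were lower, at 4.79, 4.2 and 4.21. As 30 of the 69 had a mean under 1 CPM in section A, the size of these values depends on the prior count. The eggs gave 2.19, 2.12 and 2.13 for the D set. In the C set, 132 of 147 were higher in A, 89.8%, against 17.6% of all and 25.6% of the highest group by level, and 8 were higher in E. Its median log2 change was -1.38, with an interquartile range of -2.36 to -0.90, and -1.17, -1.58 and -1.22 in eggs 10, 18 and 20. Sections E and A enter the same fit and share its estimate of the spread.

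Within the animal side the same sets differed little. In section B against section A, 56 members of the D set were higher in B, 9.57%, against 0.735% of all tested, and 12 were higher in A. Their median log2 change, B over A, was 0.15, against 0.01 over all, and 0.44 and 0.36 with the deposited factor and the spike-in, which move all transcripts by 0.30 and 0.21. In the C set 28 were higher in A, 19.0%, against 2.65% of all, and 7 were higher in B. Its median of -0.15 changed sign to 0.14 with the deposited factor and 0.04 with the spike-in, below the shift of all transcripts in both. The D set already rose from B to C, where 565 of its 585 members were higher in C. The share of all tested transcripts higher in C than in B was not counted. With TMM the D set's median log2 change was 0.86 ± 0.15, C over B, and 0.81 ± 0.15, D over C (mean and SD of 3 eggs). Over all transcripts the median was 0.01 in both steps. For the 69 these values were 1.93 ± 0.36 and 1.46 ± 0.27, and for the C set -0.36 ± 0.07 and -0.63 ± 0.09.

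By share of counts, the D set took 1.92 ± 0.0656, 2.15 ± 0.0375, 3.90 ± 0.379, 6.34 ± 0.316 and 7.74 ± 0.132% of sections A through E (SD, n = 3). No library of sections B to E overlapped in this share with one of the section before it. The C set took 2.33 ± 0.129, 1.95 ± 0.198, 1.43 ± 0.218, 0.929 ± 0.149 and 0.791 ± 0.112% in the same order. The highest mean level lay in section E for 521 members of the D set and in D for 60. In the C set it lay in A for 102, in B for 26 and in C for 18. How often each section held the highest mean among all tested transcripts was not counted, so these counts have no share to be set against. Both sets were chosen on the difference between sections D and C, so the other sections describe them more independently than D and C do. They are not fully independent, since the fit behind the calls took its spread and egg terms from all sections. In a fit of sections C and D alone, 466 of the 585 members of the D set and 90 of the 147 of the C set kept their call.

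**Figure D4:**
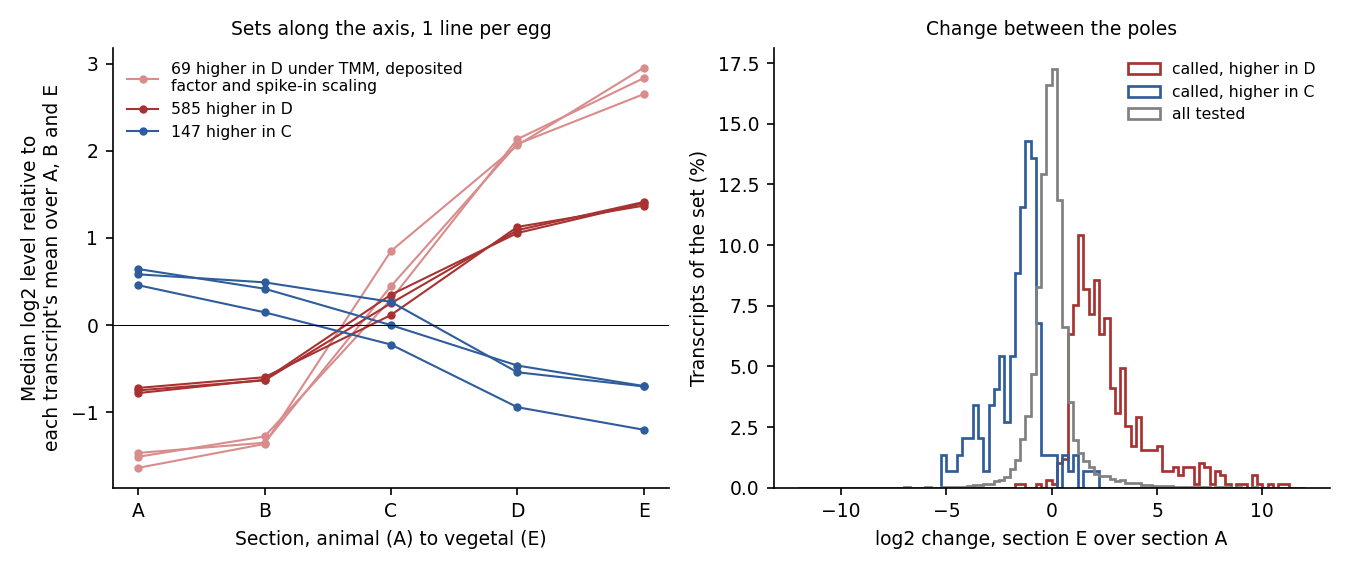
Left, median log2 level of each set in each library relative to the transcript's own mean over sections A, B and E (vertical), by section (horizontal), 1 line per egg. Right, distribution of log2 change, E over A (horizontal), as a percentage of each set (vertical), centred at 2.21 for the transcripts higher in D, -1.38 for those higher in C and -0.02 for all tested.

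Whether the step into section D differed from the step before it was tested for each transcript as the change D over C minus the change C over B. In 261 transcripts it did (edgeR, Benjamini-Hochberg). In 235, 0.808% of those tested, the step into D was lower than the step into C, and in 26, 0.0893%, it was higher. The 235 had median levels of 3.94, 8.09, 35.1, 50.8 and 56.8 CPM along the axis. In section E against section A, 222 of them were higher in E and 5 higher in A, against 17.5% and 17.6% of all tested transcripts. The 26 had medians of 182, 74.9, 30.1, 25.7 and 23.4 CPM from A to E. Section C enters both steps with opposite sign, so a deviation of the C libraries moves both. The count was 407 with the deposited factor and 372 with the spike-in. Leaving out eggs 10, 18 and 20 in turn gave 98, 124 and 126, and leaving out only the C or the D library of egg 10 gave 74 and 162 in that order.

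trinitytrinLocDN50594c0g2t1 had the most negative of these differences. It had 117, 155 and 152 CPM in section D of eggs 10, 18 and 20, against 117, 131 and 102 CPM in section C, and these ranges overlap. Section B, by contrast, held 9.0, 11.2 and 10.7 CPM, below every C library. Its step into D was lower than its step into C by a log2 difference of -3.24 ± 0.19 (SE, adjusted p = 1.36e-07, edgeR with Benjamini-Hochberg adjustment). Its change D over C was 0.27 ± 0.10 (SE), adjusted p = 0.264, a value that was -0.12 with the deposited factor and -0.38 with the spike-in. With mean levels of 0.892 CPM in section A and 122 in E, this RNA was near its highest level by section C. trinitytrinLocDN46092c0g1t2 had the largest positive difference, 2.42 ± 0.43 (SE), adjusted p = 0.00826. It had 4.43, 5.88 and 8.17 CPM in section D, against 1.93, 3.13 and 3.33 CPM in section C, without overlap. Its means were 20.6 ± 8.19, 6.61 ± 1.09, 2.80 ± 0.754, 6.16 ± 1.89 and 6.47 ± 1.15 CPM from A through E, lowest in the middle of the egg. The difference lost its call in 4 of the 9 fits, those that left out egg 10, 18 or 20 or the section C library of egg 10. The change D over C of 1.13 ± 0.24 (SE), adjusted p = 0.0151 in edgeR with Benjamini-Hochberg adjustment, lost its call in 8 of the 9 and with the spike-in. It is 1 of the 2 members of the D set that were higher in A than in E.

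For single transcripts, the step into section D was rarely told apart from the step after it. Tested in the same way, D over C minus E over D, 5 transcripts differed, 0.0172% of those tested, 3 with the higher step into D and 2 with the lower, while 1152 had an unadjusted p under 0.05. DESeq2 called 34. Leaving out C of egg 10 gave 19 and all of egg 10 gave 11, D of egg 10 or C of egg 20 gave 2 each, C of egg 18 gave 1, and eggs 18 or 20 or their D libraries gave 0. With the spike-in 81 were called, where the median of all transcripts was -0.87. Few calls do not show that the steps were alike. With TMM the D set's median log2 change was 0.81 ± 0.15, D over C. From D to E it was 0.29 ± 0.05 (mean and SD of 3 eggs). For the C set these values were -0.63 ± 0.09 and -0.17 ± 0.07, and over all transcripts 0.01 and -0.01. Both sets were chosen on D over C, so a larger step there partly follows from the choice. The difference of these medians was not tested. trinitytrinLocDN52128c0g1t2 had 524, 520 and 611 CPM in section D of eggs 10, 18 and 20, against 248, 197 and 171 CPM in section C. Every D library lay above every C library, and section E held 666, 614 and 593 CPM, a range that overlaps that of D. Its change D over C was 1.43 ± 0.11 (SE, adjusted p = 3.21e-06), and its step difference was 1.26 ± 0.18 (SE, adjusted p = 0.0353, edgeR with Benjamini-Hochberg adjustment). That difference lost its call in 7 of the 9 fits, with the deposited factor (adjusted p = 0.0993) and with the spike-in (0.418). The change of trinitytrinLocDN43380c0g1t2 ran the other way, with a step difference of -4.02 ± 0.48 (SE, adjusted p = 0.00668, edgeR with Benjamini-Hochberg adjustment). Its level fell from C to D, by a log2 change of -2.85, and was higher in E than in D. The step difference lost its call when egg 18, egg 20 or the D library of either was left out. The others were trinitytrinLocDN53885c0g1t2, trinitytrinLocDN51548c0g2t1 and trinitytrinLocDN45193c0g1t1, with adjusted p-values of 0.0367, 0.0353 and 0.0353.

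A small group of the C set did not decline along the axis. The 8 members that were higher in E than in A were lowest in section A in all 8 and had their highest mean in section C in 7. Their levels in C were 11.9 to 114 CPM, 1.53 to 2.35 times those in D and 2.03 to 5.45 times those in A, and E stood at 1.09 to 1.76 times D. In 6 of the 8 all D libraries lay below all C libraries, against 46.9% of the C set, which was called on these libraries, and 3.17% of all tested transcripts. These transcripts were chosen by C above D and by E above A, so a high C and a low A partly follow from the choice. The choice used TMM, and with the deposited factor the median of all transcripts, E over A, was -0.61. Their adjusted p, D over C, ran between 0.000635 and 0.0423 (edgeR, Benjamini-Hochberg). trinitytrinLocDN49973c3g1t3 and trinitytrinLocDN47910c1g1t2, described below, are among them.

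Some called transcripts shared a component of the assembly. The 732 called transcripts fell into 713 components of the assembly, of which 19 held more than 1 called transcript, with the same direction in 18, where 79.9% of all calls were higher in D. For 601 assembled genes with at least 2 tested transcripts, 1235 in all, the change of each transcript was tested against that of its gene. Of these, 0 transcripts were called (edgeR's diffSpliceDGE, Benjamini-Hochberg), with a smallest adjusted p of 0.0681, and 36 had an unadjusted p under 0.05. limma's diffSplice on voom values called 13. In a test by gene, added after the first was seen, 5 of 601 genes were called, 0.832%, and 6 with limma, including these 5. These counts moved with the scaling: total counts gave 4 transcripts and 4 genes, the deposited factor 3 genes and the spike-in 2 genes. The count by gene was 0 with egg 18 left out, 1 with C of egg 18 or D of egg 20 left out, 2 with egg 10, egg 20 or D of egg 18 left out, and 3 with D of egg 10 left out.

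The smallest p belonged to trinitytrinLocDN49973c3g1, named after its values were seen, with an adjusted p by gene of 0.0011, and 0.0874 without egg 18. Its transcript trinitytrinLocDN49973c3g1t3 had 30.1, 40.2 and 37.3 CPM in section D, against 84.5, 83.4 and 85.4 CPM in section C. Its transcript trinitytrinLocDN49973c3g1t5 had 56.7, 52.1 and 54.2 CPM in section D, against 50.1, 39.3 and 35.1 CPM in section C. The D libraries thus lay below all C libraries for the first transcript and above them for the second. The log2 change was -1.22 ± 0.18 (SE, adjusted p = 0.000635) for trinitytrinLocDN49973c3g1t3 and 0.39 ± 0.14 (SE, adjusted p = 0.235) for trinitytrinLocDN49973c3g1t5, in edgeR with Benjamini-Hochberg adjustment, where the second was -0.01 with the deposited factor and -0.26 with the spike-in. As a share of the gene's counts, trinitytrinLocDN49973c3g1t5 held 65.3%, 56.5% and 59.2% in section D of eggs 10, 18 and 20, against 37.2%, 32.0% and 29.1% in section C, a difference of 27.6 ± 2.84 percentage points (SD, n = 3). Its mean share was 10.2% in section A, 18.6% in B and 60.3% in E. So the transcript that held most of the gene's counts was another one in section D than in section C, in all 3 eggs. These counts were not corrected here for transcript length.

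trinitytrinLocDN47910c1g1 was the only gene with 1 transcript called higher in D and 1 called lower, also named after its values were seen. trinitytrinLocDN47910c1g1t3 had 61.7, 34.8 and 53.7 CPM in section D, against 49.1, 23.4 and 39.7 CPM in section C, and trinitytrinLocDN47910c1g1t2 had 84.1, 52.9 and 85.4 CPM in section D, against 119, 106 and 116 CPM in section C. The first overlapped between sections and was higher in D within each egg, and the second was lower in every D library than in any C library. Their log2 changes were 0.44 ± 0.11 (SE, adjusted p = 0.0398) and -0.65 ± 0.16 (SE, adjusted p = 0.0423), in edgeR with Benjamini-Hochberg adjustment. The change of trinitytrinLocDN47910c1g1t3 was 0.38 with total counts, 0.05 with the deposited factor and -0.19 with the spike-in, none of them called, and it lost its call in each of the 9 fits, that of trinitytrinLocDN47910c1g1t2 in 8. The share of trinitytrinLocDN47910c1g1t3 was 40.2 ± 1.90% in section D and 24.2 ± 5.61% in section C, a difference of 16 ± 4.88 points (SD, n = 3), and 8.20% in A, 11.7% in B and 39.8% in E. The adjusted p by gene was 0.0114. It was 0.281 with the spike-in, 0.825 without the egg as a block, 0.372 without egg 18, 0.102 without section C of egg 18, 0.159 without section D of egg 18 and 0.083 without section D of egg 20. Reads from transcripts of 1 assembled gene can be divided between them by the counting, so these shares carry that uncertainty.

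**Figure D5:**
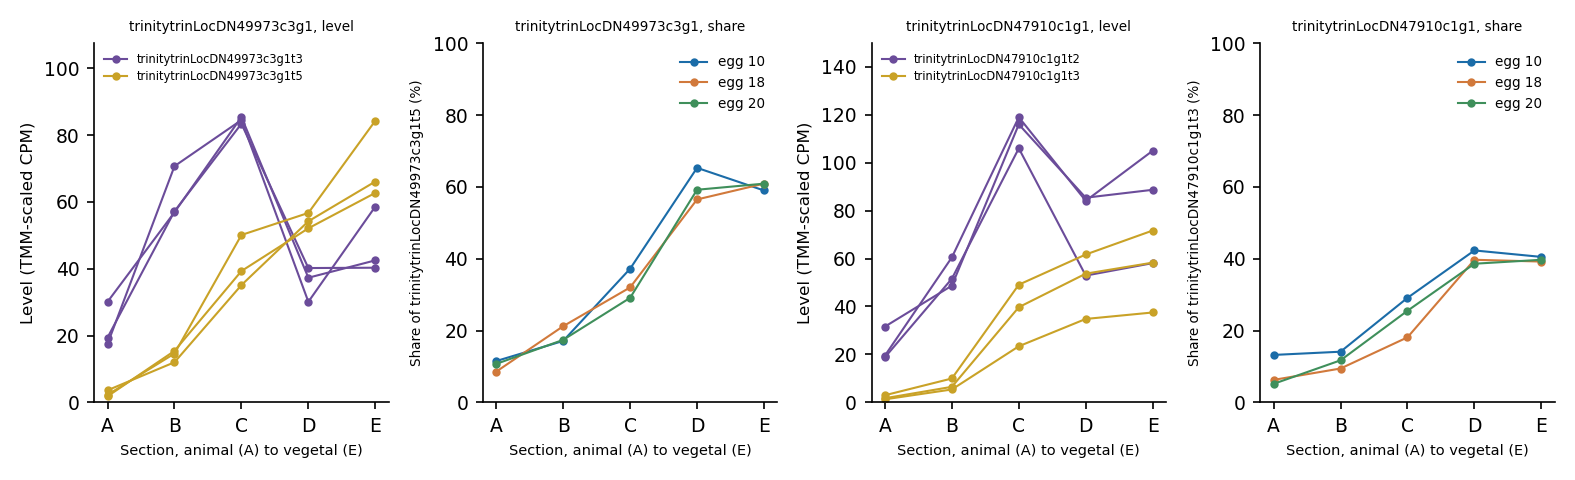
Levels in TMM-scaled CPM of the 2 transcripts of each gene and the share of the gene's counts held by the second transcript in percent (vertical axes), by section (horizontal), 1 line per egg and transcript. For trinitytrinLocDN49973c3g1 the share lies at 56.5% or more in the D libraries and at 37.2% or less in the C libraries; for trinitytrinLocDN47910c1g1 it lies at 38.6% or more in D and at 29.1% or less in C.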

How the data were processed

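The deposited counts are whole numbers per assembled transcript, 1 file per library, which the authors made from rRNA-depleted, strand-specific libraries, per the labels' protocols. The authors also deposited a normalized signal per library. Dividing the counts by it gives the same number for every transcript above 50 counts, to within a relative 9.8e-10, and this number is the deposited factor. Trimmomatic, STAR 2.5.2b, kallisto and DESeq2 are named, per the submitters' processing notes, without their roles, and the sources used here do not give the assembly. The spike-in line held between 0.0115 and 0.0235% of the counts and was left out of tests and library sizes.

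Transcripts were kept by filterByExpr, which left at least 99.6% of each library's counts. Tests used edgeR 4.0.16 (TMM, glmQLFit, glmQLFTest) in R 4.3.3, with section and egg as additive terms over all 15 libraries. This left 8 residual degrees of freedom. The common BCV, the coefficient of variation that remains after the section and egg terms, was 0.123. P-values were adjusted by Benjamini-Hochberg over all transcripts tested, at a threshold of 0.05. DESeq2 1.42.0 and limma 3.58.1 served as alternatives, and the scripts were tested on simulated data. Changes within an egg used log2 of CPM plus 0.5. Library totals ran between 4347026 and 14500611 counts.

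The 5 segments of an egg are pieces of the same cell, so the egg is a block. Deviations from section means correlated by 0.352 to 0.862 between sections C and D of the same egg and by -0.76 to 0.393 between different eggs. The ranges overlap, and deviations from a section mean cancel within that section, which by itself lowers the values between different eggs. As a check for a library deposited more than once, counts of 2 libraries of section C or of section D differed by a chi-square per degree of freedom of 8.39 to 27.2.

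Named transcripts are the 2 largest log2 changes per direction among those called the same way under TMM, the deposited factor and the spike-in, with the same direction in 3 eggs, no overlap and a mean of at least 5 CPM, for which 57 higher in D and 54 higher in C qualified. For each step difference it is the largest per direction. Members, lists and rules were chosen with earlier results of these data known. The lists of germ plasm and vegetal, animal, follicle and mitochondrial genes could not be applied, since 0 identifiers matched. Sequences and positions were not analysed here.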

Additional observations from a re-analysis of the deposited data

Results flagged for a closer look

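Both results given here come from values outside the counts of transcripts. The spike-in line had at least 693 counts in each of the 6 libraries of sections D and C, and it is no transcript of the egg. The deposited factor, relative to the TMM library size, had a mean in section D of 1.31 times that in section C. Their part in the comparison is given by the calls under each scaling, and what the factor stands for was not tested.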

How the results depend on the processing

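With total counts, the deposited factor and the spike-in, 0 members of the D set and the C set were called in the opposite direction, but the number of calls moved. With total counts only, 225 were called higher in C, 3 in the step against E over D and 4 transcripts in usage, and the medians were 2.12 for E over A and 0.22 for B over A in the D set and -0.08 for B over A in the C set. With the deposited factor 10195 were called between D and C, of which 329 were higher in D and 9866 in C. The steps then had 407 against C over B and 2 against E over D, usage had 3 genes, and the medians E over A and B over A were 1.62 and 0.44 in the D set and -1.97 and 0.14 in the C set. With the spike-in these were 12542, 90 and 12452 calls, 81 for the step against E over D, 2 genes, and medians of 1.72, 0.36, -1.91 and 0.04. Under both scalings every transcript of a library shifts alike, and the tests ignore the error of that shift. The spike-in level, D over C, differed between eggs, with a log2 ratio of 0.51, 0.97 and 0.45 in eggs 10, 18 and 20. Fitted changes of single transcripts therefore moved by unlike amounts with the spike-in. TMM without the 100 most abundant transcripts gave 3 in the step against E over D, DESeq2 gave 34, and no low count filter gave 3 genes in usage. Sections C and D alone gave 1 transcript and 2 genes in usage, and limma gave 13 transcripts. A minimum change of 1.5-fold left 72 calls, 65 higher in D and 7 in C. Without the replicate block there were 187 calls, 180 of them higher in D, 7 in C, and the steps had 40 and 0 and usage 2 genes. With libraries thinned to the shallowest total, an alternative chosen after seeing the data like the test by gene, 690 were called. Changes that reversed were those of trinitytrinLocDN50594c0g2t1 (-0.12 under the deposited factor and -0.38 under the spike-in), trinitytrinLocDN49973c3g1t5 (-0.01 and -0.26) and trinitytrinLocDN47910c1g1t3 (-0.19 with the spike-in). The cause of these moves was not tested.

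Over the fits without an egg or a C or D library, calls ran between 158 and 665 for D against C, 144 and 555 higher in D, 14 and 131 higher in C, 74 and 214 for the step against C over B, 0 and 19 for the step against E over D, 0 and 0 for usage by transcript and 0 and 6 by gene. Medians ran between 2.20 and 2.25 (E over A) and 0.15 and 0.16 (B over A) in the D set, and between -1.44 and -1.18 and between -0.17 and -0.12 in the C set. A fit that leaves out a library has 2 in its section and takes their spread from all sections. Over all alternatives, scalings and tests included, 270 values for named transcripts kept direction and side of the threshold, 87 lost the call and 5 reversed. The reversals all came with the deposited factor or the spike-in, and none with an egg or library left out.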
